A study of Mus musculus with 4 samples.

Results

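The insulin-like growth factor (IGF) ligands, the scavenging receptor Igf2r and the IGF binding proteins were followed as 9 genes in the nascent RNA of C2C12 myotubes: Igf1, Igf2, Igf2r, Igfbp2, Igfbp3, Igfbp4, Igfbp5, Igfbp6 and Igfbp7. They were chosen by gene symbol from the 23333 rows of the count table, and all 9 had a row of their own. Each had enough reads to be tested among 13285 genes. C2C12 is a mouse myoblast line, labelled female, whose cells fuse into multinucleated myotubes. All cultures had been deprived of steroids and then received vehicle (2 libraries) or the synthetic glucocorticoid dexamethasone at 1 µM (2 libraries), each for 2 h. RNA was taken from the chromatin pellet of isolated nuclei, so the reads follow RNA still attached to its template more than the store of finished mRNA. The model is a single cell line, and the labels do not say whether the replicates came from separate cultures, so p-values measure only the spread between these libraries, which may be technical.

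IGF1 and IGF2 are secreted ligands that drive muscle growth and differentiation through the IGF1 receptor, a tyrosine kinase. The binding proteins hold the ligands outside the cell. They can block access to the receptor or store ligand for later release, and proteases such as pregnancy-associated plasma protein A (Pappa) free the ligand by cutting them. Igf2r, also the receptor for mannose 6-phosphate, takes IGF2 into the cell for destruction. Igf2 and Igf2r are imprinted in the mouse, the first read from the paternal and the second mainly from the maternal copy. Glucocorticoids oppose muscle growth, and reduced IGF signalling is a known part of steroid-induced muscle wasting.

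The libraries held between 19631435 (vehicle replicate 1) and 88596296 (dexamethasone replicate 2) gene counts. Fkbp5, a chaperone gene used as a check that the hormone acted, was at 21.5 and 21.6 CPM (a gene's counts brought to one library size, with TMM factors) in the vehicle libraries and at 1019 and 697 CPM in the dexamethasone libraries, and the clock gene Per1 at 15.6 and 19.1 against 91.0 and 109 CPM. The 10 markers of fused muscle cells were all counted, and their sum was 124155 and 43332 CPM in vehicle replicates 1 and 2 and 119859 and 42303 CPM in dexamethasone replicates 1 and 2. Both replicate 1 libraries thus lay above both replicate 2 libraries in this sum, most of which is the titin gene Ttn. Markers of fat cells summed to at most 0.184 CPM, those of macrophages to at most 4.003 and those of endothelial cells to at most 2.47 CPM in any library. Most of the latter sums came from Cd68 (2.92 to 3.87 CPM), also a lysosomal gene, and from Pecam1 (0.734 to 1.13) and Tek (0.901 to 1.02). Cidec (fat), Ptprc (macrophages) and Kdr (endothelium) had at most 1 count in any library. The remaining markers reached up to 9 counts per library in fat (Fabp4), 7 in macrophages (Csf1r) and 17 in endothelium (Cdh5).

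The stretches of DNA before the start sites of 4 members are shown. Igfbp5 is the highest member, Igfbp7 and Igfbp5 differ most between the replicates in opposite directions, and Igfbp4 has the lowest fold change after dexamethasone. The Igf2 window is only an example of a glucocorticoid receptor half-site, which a window of Igfbp2, not shown, also holds. No result rests on that half-site, and which Igf2 start these cells use was not tested. Each sequence is the 250 bases upstream of an annotated start, 5′ to 3′ on the gene's strand, from RefSeq (GRCm38.p6). The windows are Igfbp5 at chr1:72874866-72875115 (minus strand), Igfbp7 at chr5:77408046-77408295 (minus), Igfbp4 at chr11:99040994-99041243 (plus) and the first of 4 Igf2 starts at chr7:142666817-142667066 (minus). Capitals mark the receptor half-site in Igf2 and the TATA box in Igfbp4.
Igfbp5: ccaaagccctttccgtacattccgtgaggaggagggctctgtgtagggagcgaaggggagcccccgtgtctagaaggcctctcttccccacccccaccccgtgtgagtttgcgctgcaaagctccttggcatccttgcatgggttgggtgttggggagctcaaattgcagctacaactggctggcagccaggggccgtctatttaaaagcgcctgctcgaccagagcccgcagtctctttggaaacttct
Igfbp7: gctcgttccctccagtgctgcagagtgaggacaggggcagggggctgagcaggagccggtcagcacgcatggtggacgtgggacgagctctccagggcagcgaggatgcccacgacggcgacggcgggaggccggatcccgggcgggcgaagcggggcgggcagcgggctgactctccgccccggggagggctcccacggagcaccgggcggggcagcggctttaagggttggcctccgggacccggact
Igfbp4: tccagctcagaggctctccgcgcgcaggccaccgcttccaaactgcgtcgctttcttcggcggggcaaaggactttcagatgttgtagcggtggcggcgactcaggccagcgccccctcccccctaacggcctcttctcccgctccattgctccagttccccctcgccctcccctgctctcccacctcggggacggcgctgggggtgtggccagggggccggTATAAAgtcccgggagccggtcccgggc
Igf2: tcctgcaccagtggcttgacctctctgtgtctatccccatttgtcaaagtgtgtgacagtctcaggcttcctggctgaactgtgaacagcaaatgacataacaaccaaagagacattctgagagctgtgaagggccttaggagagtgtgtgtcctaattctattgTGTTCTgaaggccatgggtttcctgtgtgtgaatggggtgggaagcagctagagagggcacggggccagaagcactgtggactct

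The 9 members matched 13 such windows, because Igf2 has 4 and Igfbp2 has 2. The full palindrome of the glucocorticoid receptor, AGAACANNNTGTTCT, which reads the same on both strands, was in none of the 13 and in 0.00913% of all 32851 windows of that length. The half-site AGAACA, or TGTTCT on the other strand, was in 2 member windows, one of Igf2 at 85 bases and one of Igfbp2 at 206 bases before the start, against 16.1% of all windows. The E-box CAGCTG, the letters preferred by myogenic factors and the same on both strands, was in 1 member window, that of Igf1 at 157 bases, against 13% of all windows. The TATA letters TATAAA, or TTTATA on the other strand, were in 2, those of Igfbp4 at 28 bases and Igfbp6 at 148 bases, against 12.4%. None of these motifs was found in the windows of Igfbp5 and Igfbp7 printed above. The windows differ in base composition: G and C made up 74% of that of Igfbp7, 69.2% of that of Igfbp4, 58.8% of that of Igfbp5 and 50.8% of the Igf2 window, where the median over all windows was 52.4%.

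The level of each member in the RNA of the chromatin pellet was compared per kilobase of exon, with exon lengths from GENCODE M21. Igfbp5 stood at the top, at 196 and 61.4 CPM per kilobase in vehicle replicates 1 and 2 and at 173 and 60.5 in dexamethasone replicates 1 and 2. Its lowest library was above the highest library of every other member. Igfbp7, which binds IGFs only weakly and is also known as a matrix protein, came next at 18.8 and 37.5 without and 22.4 and 37.5 with dexamethasone. Igf2r ran from 11.1 to 16.9 CPM per kilobase over the 4 libraries and Igf2 from 6.74 to 18.0, and Igfbp6 reached up to 7.26, so these neighbours in the order overlapped. Igfbp7, at 18.8 or more, did not overlap with either.

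The lower members followed in the order Igfbp6, Igf1, Igfbp2, Igfbp4 and Igfbp3. Igfbp6, a binding protein with a preference for IGF2, ran from 4.08 to 7.26 and Igf1 from 2.64 to 4.19 CPM per kilobase, which overlap narrowly. Igfbp2 ran from 1.28 to 2.35, Igfbp4 from 0.371 to 1.02 and Igfbp3, the main carrier of IGFs in blood, from 0.181 to 0.274. Igfbp2, Igfbp4 and Igfbp3 did not overlap with each other or with Igf1. With the whole gene span in place of exon length, Igfbp5 stayed first and Igfbp3 last, while Igfbp7, a long gene with short exons, moved from place 2 to place 5, and Igf2 from place 4 to place 2. Whether intron reads were counted is not stated, so the order in the middle depends on which length applies. Igfbp1, which is not among the 9 but belongs to the same family, had 0 counts in all libraries, which allows up to 0.161 CPM in the smallest and 0.0321 CPM in the largest library by counting error alone. The genes next to it on its strand did have counts.

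**Figure D1:**
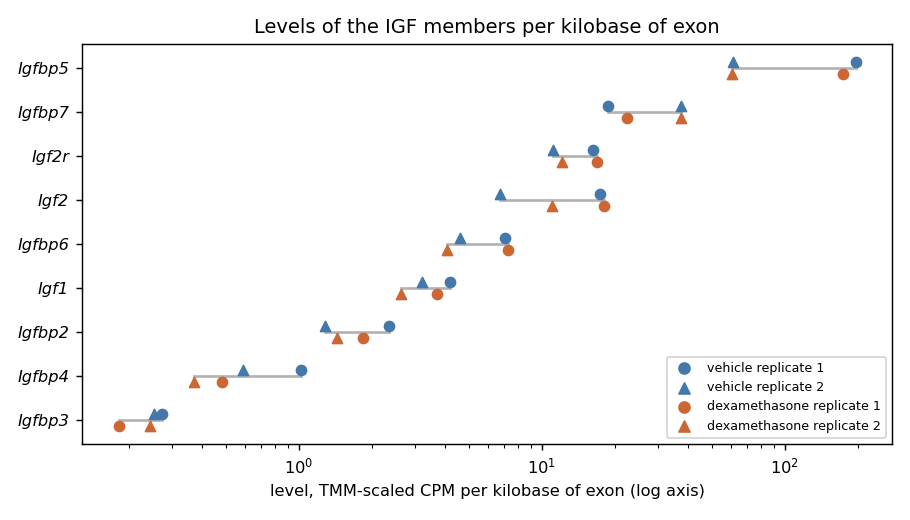
Level of each member in TMM-scaled CPM per kilobase of exon on a log axis, 1 symbol per library (circles replicate 1, triangles replicate 2; blue vehicle, orange dexamethasone), with a grey line from the lowest to the highest library. Igfbp5 lies between 60.5 and 196, above the other members, and Igfbp3 lies at or under 0.274.

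Among the binding proteins, the balance between Igfbp5 and Igfbp7 differed by replicate. Igfbp5 made up 86.9% of the summed level per kilobase of Igfbp2 to Igfbp7 in vehicle replicate 1 and 84.4% in dexamethasone replicate 1, but 58.1% in replicate 2 of either group. Igfbp7 made up 8.33% and 10.9% in the replicate 1 libraries of vehicle and dexamethasone, and 35.5% and 36.01% in the replicate 2 libraries. The other 4 binding proteins shared the rest, with at most 4.35% for Igfbp6, 1.38% for Igfbp2, 0.559% for Igfbp4 and 0.239% for Igfbp3 in any library. These shares depend on the length used. Per kilobase of gene span, Igfbp5 made up 96.5% and 91.01% in vehicle replicates 1 and 2 and 96.3% and 91.6% in dexamethasone replicates 1 and 2, and Igfbp7 only 0.537% and 3.23% without and 0.720% and 3.29% with dexamethasone, under Igfbp6 in every library.

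The question the design poses is which of these genes are transcribed more or less within 2 h of dexamethasone. No member passed an adjusted p of 0.05 in edgeR's quasi-likelihood test (two-sided, Benjamini-Hochberg over all 13285 genes), where 5 genes, 0.0376% of those tested, were called higher and 0 lower. In that test the check gene Fkbp5, at a fold of 39.8, had an adjusted p of 0.0429. Per1, at a fold of 5.76, had one of 0.117, so even a change of that size can go uncalled here. None of the 9 had an unadjusted p under 0.05 either, where 5.78% of all tested genes did. The fitted log2 fold change was above 0 in 3 members and below 0 in 6, with a median of -0.14, against -0.0016 over all tested genes. With the group as the only term, 3 other tests also called 0 members: DESeq2's Wald test (2.18% of all genes called), edgeR's likelihood ratio test (2.17%) and limma-voom (0%). The median moved to 0.29 when vehicle replicate 1 was left out and to -0.34 when vehicle replicate 2 was. Such fits leave the replicate numbers unequal between the groups, so a gap between replicates enters the fold change. Within replicate numbers 1 and 2, the members' median log2 ratio of dexamethasone over vehicle was -0.18 and -0.02. Both dexamethasone libraries lay below both vehicle libraries in 2 members, Igfbp3 and Igfbp4, and above them in 0, where 12.9% of all tested genes lay below and 15% above. With library size alone as the scaling, Igf1 joined them.

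Igf1, the ligand most often tied to muscle mass, was at 41.5 and 31.8 CPM in vehicle replicates 1 and 2 and at 36.6 and 26.2 CPM in dexamethasone replicates 1 and 2. Within each replicate number the dexamethasone library was the lower one, at 0.883 and 0.824 times the vehicle library, but the groups overlapped. Igf1 had a log2 fold change of -0.22 (SE 0.242, 95% interval -0.86 to 0.42), with an edgeR adjusted p of 1.00.

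Igf2, the ligand that myoblasts make in quantity as they differentiate, was at 99.0 and 38.6 CPM in the vehicle libraries and at 103 and 63.0 CPM in the dexamethasone libraries. Replicate 1 was the higher library in both groups, and the groups overlapped. Dexamethasone replicate 1 was at 1.04 times its vehicle counterpart and dexamethasone replicate 2 at 1.63 times, so the size of the difference was not shared between the replicate numbers. The log2 fold change was 0.28 (SE 0.514, interval -1.09 to 1.64). Leaving out a vehicle library moved it to -0.25 (replicate 2) or 1.11 (replicate 1), but also left the replicate numbers unequal between the groups.

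Igf2r was at 151 and 103 CPM in the vehicle libraries and at 157 and 113 CPM in the dexamethasone libraries. Again both replicate 1 libraries were above both replicate 2 libraries, while within a replicate number the treatment ratio was 1.04 and 1.09. The log2 fold change was 0.09 (SE 0.265, interval -0.61 to 0.79). It was -0.16 without dexamethasone replicate 1 or without vehicle replicate 2. Both of those fits leave more replicate 2 than replicate 1 libraries with dexamethasone, or the reverse with vehicle, so the replicate gap enters the value. The noncoding RNA Airn, which is read antisense across Igf2r and silences its paternal copy, was at 464 and 480 CPM in the vehicle and 470 and 462 CPM in the dexamethasone libraries. Airn therefore did not share the gap between the replicates that Igf2r had. The strand setting of the counting is not stated, so reads of Igf2r and Airn may not be fully told apart where they overlap. The same holds for Igf2 with Igf2os, at most 0.429 CPM in any library, and for Igfbp7 with Polr2b.

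Igfbp4, an inhibitory binding protein, had the lowest fold change of the members. It was at 4.51 and 2.61 CPM in the vehicle libraries (84 and 99 counts) and at 2.14 and 1.64 CPM in the dexamethasone libraries (64 and 153 counts). The treated libraries both lay under the untreated ones, at 0.474 times the vehicle level in replicate 1 and 0.628 times in replicate 2. The log2 fold change was -0.91 (SE 0.388, interval -1.94 to 0.12), a fold of 0.532, with an unadjusted p of 0.0707 and an edgeR adjusted p of 0.962. Without vehicle replicate 1, which held the highest value, it was -0.48, and without vehicle replicate 2 it was -1.26. The gene thus stayed below 0 in each of the 4 fits that left out a library. Once replicate was added to edgeR's quasi-likelihood model beside the group, Igfbp4 was called lower (-0.85, SE 0.198, adjusted p 0.0396). That model has 1 residual degree of freedom, and the labels do not show that libraries sharing a number belong together.

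Igfbp3 was the other member whose groups did not overlap, at 0.858 and 0.791 CPM in the vehicle and 0.567 and 0.760 CPM in the dexamethasone libraries. It rests on 16 and 17 counts in the replicate 1 libraries of vehicle and dexamethasone and on 30 and 71 in the replicate 2 libraries. The gap between vehicle replicate 2 and dexamethasone replicate 2 was small, a ratio of 0.962, and the log2 fold change of -0.29 (SE 0.383, interval -1.30 to 0.73) had an edgeR adjusted p of 1.00.

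Igfbp5, the binding protein most closely tied to muscle differentiation, was at 1177 and 369 CPM in the vehicle libraries and at 1041 and 363 CPM in the dexamethasone libraries. The 4 libraries fell into 2 well-separated levels by replicate number, with replicate 1 at 3.19 times replicate 2 in vehicle and 2.87 times in dexamethasone. Within a replicate number the treated library was at 0.885 and 0.986 times its vehicle counterpart. The log2 fold change was -0.14, and its SE of 0.742, the widest among the members, gave an interval of -2.10 to 1.83. With group as the only term in the fit, the gap between the replicate numbers is part of this SE. Without vehicle replicate 1 the value was 0.93 and without dexamethasone replicate 1 it was -1.08. Leaving out a library leaves the replicate numbers unequal between the groups.

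Igfbp7 had the opposite order, at 22.7 and 45.4 CPM in the vehicle and 27.0 and 45.3 CPM in the dexamethasone libraries. Replicate 1 was at 0.500 times replicate 2 in vehicle and 0.596 times in dexamethasone. The treatment ratio was 1.19 within replicate 1 and 0.999 within replicate 2, and the log2 fold change was 0.09 (SE 0.428, interval -1.05 to 1.22). Polr2b, which overlaps Igfbp7 on the other strand, did not have this order, at 62.8 and 49.8 CPM in the vehicle and 61.9 and 50.2 CPM in the dexamethasone libraries.

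Igfbp2 and Igfbp6 were low and followed replicate 1. Igfbp2 was at 4.35 and 2.37 CPM in the vehicle libraries and at 3.40 and 2.65 CPM in the dexamethasone libraries. This gave a log2 fold change of -0.14 (SE 0.392, interval -1.18 to 0.90). The treatment ratio was 0.783 in replicate 1 and 1.115 in replicate 2, on either side of 1. Igfbp6 was at 7.83 and 5.11 CPM in the vehicle and 8.07 and 4.54 CPM in the dexamethasone libraries. This gave a log2 fold change of -0.04 (SE 0.391, interval -1.07 to 1.00). Its treatment ratios, 1.03 and 0.888, also lay on either side of 1.

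**Figure D2:**
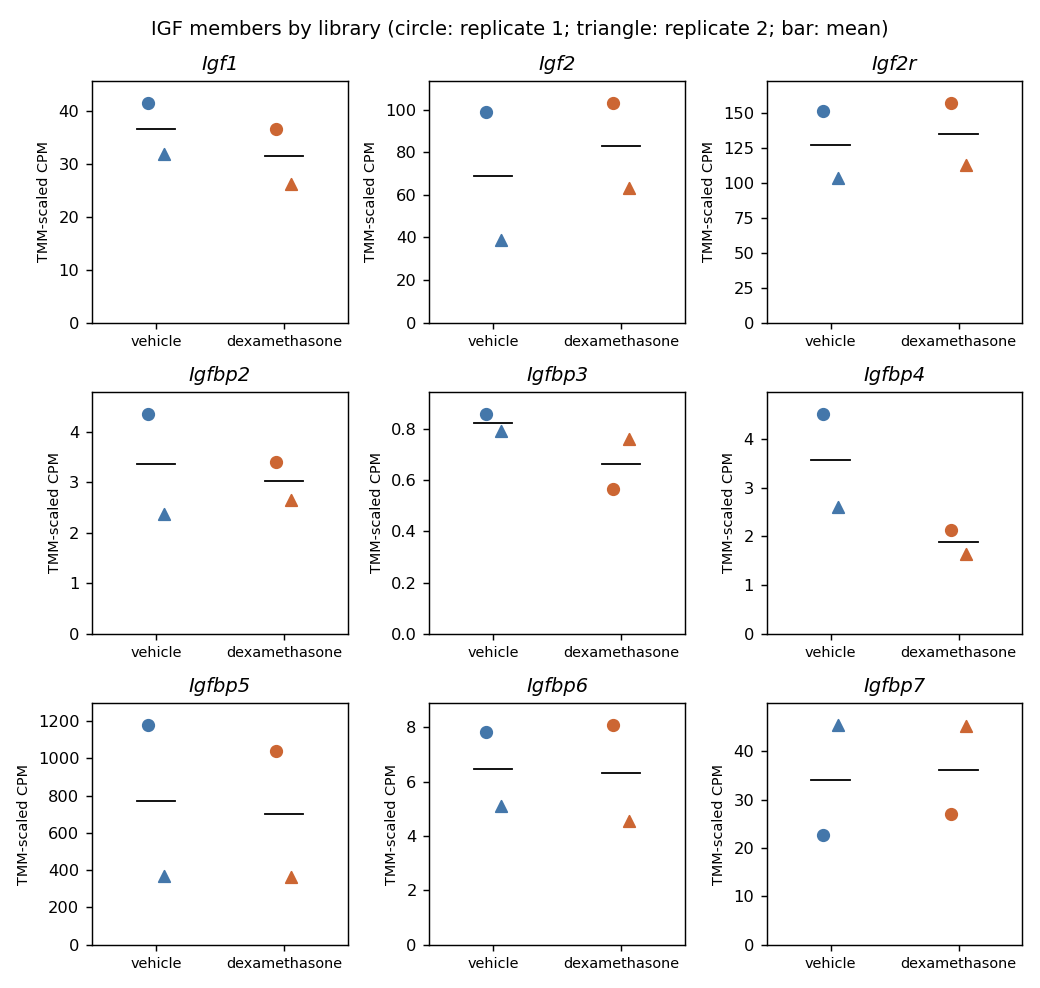
TMM-scaled CPM of each member in the 4 libraries, with circles for replicate 1, triangles for replicate 2 and a bar at the group mean (n = 2). The groups are apart only in Igfbp3 and Igfbp4, while in Igfbp5 both circles, at 1177 and 1041, lie far above both triangles, at 369 and 363.

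Across the members, the difference between the replicate numbers was therefore compared with that between the treatments. Both replicate 1 libraries were above both replicate 2 libraries in 6 members (Igf1, Igf2, Igf2r, Igfbp2, Igfbp5 and Igfbp6) and below them in 1 (Igfbp7). With library size alone as the scaling, Igf1 left this group and 5 were above. Over all tested genes the share was 31.8% above and 32.1% below, so a split by replicate number is common among genes in these libraries, and 7 of 9 members is close to the 63.9% of genes that split either way. In the same 7 members the smaller of the replicate gaps, in log2 terms, was larger than the larger of the treatment differences, which held for 44.1% of all tested genes. This count rests on narrow margins in Igf2 (a gap of 0.710 against a difference of 0.707) and Igfbp2 (0.36 against -0.35). It was 6 with upper quartile scaling, without Igfbp2, and 4 with library size alone (Igf2r, Igfbp5, Igfbp6 and Igfbp7), where 43.8% and 49.3% of all genes were so. The median log2 ratio of replicate 1 over replicate 2 was 0.61 in vehicle and 0.48 in dexamethasone over the 9 members, and -0.01 in both groups over all tested genes.

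The markers of fused muscle cells moved with the same split. In 9 of the 10, Mymk being the exception, both replicate 1 libraries were above both replicate 2 libraries, and their median log2 ratio was 1.56 in vehicle and 1.60 in dexamethasone. Leaving out Ttn, the titin gene that dominates the sum, the other 9 summed to 6028 and 2262 CPM in vehicle replicates 1 and 2 and to 6504 and 2360 CPM in dexamethasone replicates 1 and 2. The 8 markers of undifferentiated or dividing myoblasts summed to 61.1 and 66.8 CPM in the vehicle and 48.0 and 56.5 CPM in the dexamethasone libraries. Pax7 carried that difference, at 32.0 and 39.0 CPM without and 17.9 and 22.9 CPM with dexamethasone. The other 7 summed to 29.1 and 27.8 CPM in the vehicle and 30.1 and 33.7 CPM in the dexamethasone libraries, and 6 of the 8 had a fitted log2 fold change above 0. The part of these markers in the differences of Igf2, Igfbp5 and Igfbp7 was not tested, and in bulk samples fewer fused cells and less RNA per cell cannot be told apart. The labels do not say what the replicate number stands for.

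**Figure D3:**
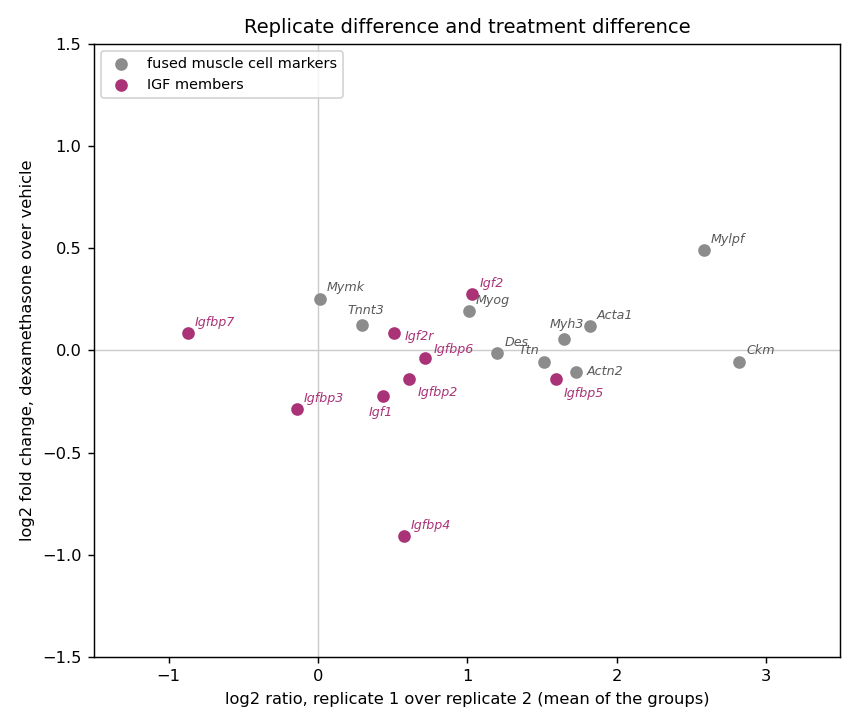
Fitted log2 fold change of dexamethasone over vehicle (vertical axis) against the log2 ratio of replicate 1 over replicate 2, averaged over the groups (horizontal axis), for the 9 members and the 10 fused muscle cell markers. Igfbp5 lies among the muscle markers, Igfbp7 lies farthest left, and Igfbp4 is the lowest point at -0.91.

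The genes most like the members with the widest spread over the 4 libraries, Igfbp5 and Igf2, were sought among all tested genes by the root mean square difference of centred log2 CPM over 4 libraries. Nearest to Igfbp5 were Slc9a2 (0.0482), Ttn (0.0587) and Psmb6 (0.0626), of which Ttn is a muscle marker. Ttn was at 118127 and 41070 CPM without and at 113355 and 39943 CPM with dexamethasone. Among the nearest to Igf2 were Psmd10 (0.0336) and Il33 (0.0620). With only 4 points such a likeness is loose, and it describes these libraries alone.

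The 32 partner genes of the IGF system were followed in the same fit, and 25 had enough reads to be tested. None passed the adjusted threshold in edgeR's quasi-likelihood test or in limma-voom, while DESeq2's Wald test and edgeR's likelihood ratio test each called the same 3, Irs1, Irs2 and Pappa, where they called 2.18% and 2.17% of all tested genes. At an unadjusted p under 0.05, 2 were higher (Irs2 and Pappa) and 1 was lower (Irs1), or 3 of 25, against 4.09% and 1.69% of all tested genes. The median log2 fold change of the 25 was 0.07, with 16 above 0 and 9 below, and ran from 0.05 to 0.16 when single libraries were left out. Both dexamethasone libraries were above both vehicle libraries in 7 (Igf1r, Irs2, Pappa, Htra1, Htra4, H19 and Gnptab) and below them in 1 (Irs1), where 15% of all tested genes lay above and 12.9% below.

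On the receiving side, Igf1r, the receptor through which both ligands signal, was level at 732 and 741 CPM in the vehicle and 750 and 797 CPM in the dexamethasone libraries. Its log2 fold change of 0.07 (SE 0.129) had an interval of -0.27 to 0.41. Of the adaptor proteins that carry the signal on, Irs1 was at 315 and 236 CPM in the vehicle and 127 and 111 CPM in the dexamethasone libraries, a log2 fold change of -1.21 (SE 0.193, unadjusted p 0.0021, edgeR adjusted p 0.201). Irs2 was at 14.97 and 18.3 CPM in the vehicle and 32.4 and 36.6 CPM in the dexamethasone libraries, a log2 fold change of 1.05 (SE 0.176, unadjusted p 0.00258, edgeR adjusted p 0.213). The groups were apart in both adaptors, in opposite directions, within each replicate number as well.

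Of the 7 proteases and protease inhibitors that govern the release of IGF from binding proteins, 6 were tested, and all 6 had a fitted log2 fold change above 0, with a median of 0.56, where 6601 of all 13285 tested genes were above 0. No member of this group passed the adjusted threshold in edgeR's quasi-likelihood test, 1 (Pappa) had an unadjusted p under 0.05, and Htra3 was near 0 at 0.02 (SE 0.621). The 6 include an inhibitor, Stc2, at 0.31 (SE 0.233) with overlapping groups, so their shared direction is not one of proteases alone. In 3 of them, Pappa, Htra1 and Htra4, both dexamethasone libraries were above both vehicle libraries, against 15% of all tested genes. Pappa, whose product cuts the Igfbp4 and Igfbp5 proteins, was at 35.6 and 59.7 CPM in the vehicle and 105 and 117 CPM in the dexamethasone libraries. The treatment ratio was 2.94 in replicate 1 and 1.95 in replicate 2, and the log2 fold change was 1.21 (SE 0.278, unadjusted p 0.00904, edgeR adjusted p 0.379). Its relative Pappa2 was at 13.5 and 6.17 CPM in the vehicle and 25.3 and 13.4 CPM in the dexamethasone libraries, which overlap narrowly, with a treatment ratio of 1.88 and 2.17 and a log2 fold change of 0.99 (SE 0.506, edgeR adjusted p 1.00). The serine protease gene Htra1 was at 31.0 and 31.4 CPM in the vehicle and 40.1 and 37.2 CPM in the dexamethasone libraries, a log2 fold change of 0.31 (SE 0.133, unadjusted p 0.0743). Htra4 rests on 3 counts in vehicle replicate 1, and its log2 fold change of 0.81 (SE 0.687) ran from 0.21 without that library to 2.35 without vehicle replicate 2.

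H19, the maternally expressed noncoding RNA that shares enhancers with Igf2, was at 318 and 262 CPM in the vehicle and 434 and 350 CPM in the dexamethasone libraries. The treatment ratio was 1.37 in replicate 1 and 1.34 in replicate 2, closer to each other than the 1.04 and 1.63 of Igf2. H19 had a log2 fold change of 0.43 (SE 0.182, interval -0.05 to 0.92, unadjusted p 0.0671, edgeR adjusted p 0.937). Gnptab, an enzyme that makes the mannose 6-phosphate tag which Igf2r recognises, was at 28.3 and 29.9 CPM in the vehicle and 34.2 and 34.3 CPM in the dexamethasone libraries, a log2 fold change of 0.24 (SE 0.133, unadjusted p 0.142).

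**Figure D4:**
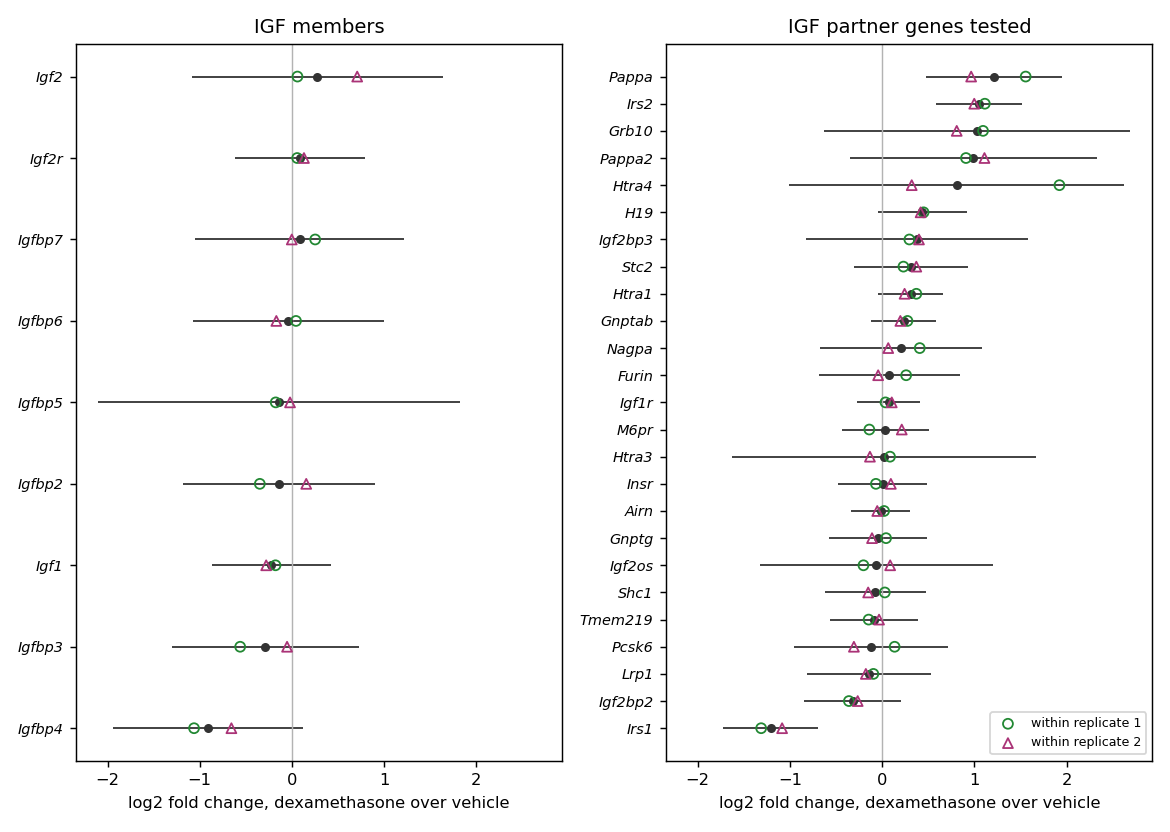
Fitted log2 fold change of dexamethasone over vehicle with its 95% interval (black) for the 9 members (left) and the 25 tested partner genes (right), beside the ratio within replicate 1 (green circles) and within replicate 2 (purple triangles). The intervals of all 9 members cross 0, with Igfbp4 lowest at -0.91, and those of Pappa, Irs2 and Irs1 do not.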

How the data were processed

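Nascent RNA was sequenced from 4 C2C12 myotube libraries. The deposited table holds raw counts of reads for each gene, which the authors made with tools that the submitters' processing notes list as TopHat2 2.0.13, SAMtools 1.1 and HTSeq 0.6.1 on mm9, with DESeq2 1.18.1 named as well; annotation, strand setting and whether introns were counted are not given in the sources used here. The labels name both a stranded total RNA kit and a stranded mRNA kit. Of 23333 rows, 51 repeated a gene with its counts and were used once. Genes were kept with edgeR's filterByExpr (minimum count 10, minimum total 15), scaled by TMM and tested with edgeR 4.0.16 in R 4.3.3 (quasi-likelihood, group as the only term, Benjamini-Hochberg over 13285 genes, threshold 0.05). SEs and 95% intervals come from the F statistic with 4.56 total degrees of freedom, and log2 ratios of single libraries have a prior count of 2. Within groups, libraries differed by more than sampling noise (chi-square per degree of freedom of 139 and 245). Group and replicate were read from the titles. The members and lists were chosen with earlier results of these data known. Named genes are all 9 members, Fkbp5 and Per1, the markers, partners past an unadjusted p of 0.05 or with groups apart, and the 3 nearest genes to the 2 most variable members, of which 1 is not reported here. Airn, Pappa2, Igf2os and Polr2b were named after their values were seen. Gene lengths and overlaps are from GENCODE M21 (GRCm38), which is not the build of the counts, so no coordinates of the counted genes are given. Intervals and limits for 0 counts (3 counts) cover counting error only where they concern 1 library.

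Alternatives were scaling by upper quartile, by DESeq2's size factors or by library size alone; every gene with 1 count, or 10 counts in every library; DESeq2 1.42.0 (Wald test), edgeR's likelihood ratio test and limma 3.58.1 (voom); a replicate block; thresholds of 0.1 and 0.01; each library left out; all rows; and libraries thinned to the smallest total. The binding proteins' shares per gene span, the count of wider replicate gaps under each scaling and the myoblast marker sum without Pax7 were added after the data were seen.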

Additional observations from a re-analysis of the deposited data

How the results depend on the processing

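Of 99 values of the 9 members under settings other than leaving out a library, 96 kept their direction and their side of the threshold, 1 became called and 2 turned direction, Igfbp6 (0.0016) and Igfbp7 (-0.0044) in thinned libraries. With the replicate number as a block, 1 member was called lower, Igfbp4 (log2 fold change -0.85, adjusted p 0.0396), as were 2 partners. In this blocked fit 6 partners were called higher, and 913 genes higher and 768 lower in all. Among these partners were H19 (log2 fold change 0.43, adjusted p 0.00328) and Htra1 (0.30, adjusted p 0.0369). The adjusted p of Igfbp4 ran from 0.0396 to 1.00 over its alternatives. Nothing in the labels ties a replicate number to one day or batch. The gaps between the replicates correlated between the groups (r = 0.734 across 13285 genes, which are not independent), and libraries of the same number were more alike across groups (Pearson's r of log2 CPM 0.981 and 0.989, chi-square per degree of freedom 45.8 and 76.4) than libraries of the same group (0.973 and 0.980; 139 and 245), but 2 pairs are too few to establish pairing and the blocked fit has 1 residual degree of freedom.

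All genes called higher and lower were 236 and 53 in DESeq2's Wald test, and 243 and 45 in the likelihood ratio test, each with 2 partners higher (Irs2 and Pappa) and 1 lower (Irs1) and 0 members. They were 23 and 0 with every gene counted, and 0 and 0 in limma-voom and at an adjusted p of 0.01. The partner median was 0.0326 with library size alone, 0.119 with every gene and 0.0406 when thinned. The cause was not tested.

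Without single libraries, the lone library of a group being assumed to vary like the other group, 4 to 84 genes were called higher and 0 to 109 lower, 0 members in any fit, and 0 to 1 partners higher and 0 to 1 lower (Pappa and Irs1, without vehicle replicate 2). The member median ran from -0.34 to 0.29 and the partner median from 0.0512 to 0.162. All of these fits leave the replicate numbers unequal between the groups. Single members ran from -0.48 to 0.0023 (Igf1), -0.25 to 1.11 (Igf2), -0.16 to 0.39 (Igf2r), -0.52 to 0.34 (Igfbp2), -0.53 to -0.11 (Igfbp3), -1.26 to -0.48 (Igfbp4), -1.08 to 0.93 (Igfbp5), -0.50 to 0.33 (Igfbp6) and -0.34 to 0.68 (Igfbp7), and Airn from -0.0400 to 0.0155. Igfbp3 rests on 16 counts in the smallest library and Htra4 on 3, but the SE of Igfbp3 (0.383) was below that of better-counted members such as Igfbp5 (0.742).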
